A study of Mus musculus with 2 samples.

Results

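The genes Atoh1, Foxc1, Hes7, Npas3, Ovol2, Alx1 and Tle3 encode regulators of transcription in development. Each was the assigned gene of at least 1 site that the authors listed for KLF6 in cultured mouse cells of hepatocellular carcinoma (HCC). Whether KLF6 binds at these sites was not tested here. The 7 genes were chosen from the measured lists because they carry sites, some of them in both experiments. They held 6 of the 742 sites in experiment 1, and experiment 2 had 7 of its 901 sites at them. These came to 8 of the 1531 distinct sites, and to 7 of the 574 genes given a symbol in either list. That these genes have sites, and that some sites recur, is therefore part of how they were picked, and the values below are descriptions without a test.

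The sites came from chromatin immunoprecipitation followed by sequencing (ChIP-seq). The HCC cells, grown in DMEM with serum, had been transfected with a plasmid for the whole KLF6 protein fused to the V5 epitope. The 2 samples were DNA precipitated with antibody against V5 and input DNA, which is DNA isolated without that step. Both came from transfected cells, so neither sample shows the signal of the antibody in cells that lack the tagged protein. Each sample combined material of 2 experiments, of which experiment 1 was sequenced in 2 runs. The authors' 2 lists, 1 for each experiment, compare ChIP with input. They give for each site a tag count, a score (the p-value of the peak caller as −log10, multiplied by 10), a fold enrichment and a false discovery rate (FDR), all of them the authors' values.

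KLF6 is a zinc finger factor of the Krüppel-like family, which binds GC-rich and CACCC-type elements. Among the 7 genes, Atoh1, Hes7 and Npas3 encode basic helix-loop-helix (bHLH) proteins, Foxc1 a forkhead protein, Alx1 a paired-type homeodomain protein and Ovol2 a zinc finger protein. Tle3 encodes a Groucho corepressor, which does not bind DNA itself and is recruited by factors such as those of the Hes family. The family names describe how these proteins bind DNA or each other and say nothing on whether the genes are active in HCC cells, which the lists do not measure.

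Most sites near these genes had their summit more than 10 kb from the gene start, as did most sites of both lists. The 8 distinct sites had a median distance of 39.3 kb from the summit to the start of the assigned gene, from 6.39 kb at Ovol2 to 368 kb at Npas3. Of the 8, 4 lay upstream of the gene, 2 downstream and 2 inside. Over all sites of experiments 1 and 2, the shares were 48.65% and 46.28% upstream, 36.52% and 34.74% downstream, and 13.34% and 18.42% inside. The small remainder of each list had other positions relative to the gene. By experiment, the median distance was 27.2 kb over 6 sites in experiment 1, beside 53.6 kb over all its sites, and 32.4 kb over 7 sites in experiment 2, beside 50.4 kb. The sites of Ovol2 and Hes7 had their summit within 10 kb of the start in each list, that is 2 of 6 and 2 of 7. Of all sites, 17.9% of experiment 1 and 17.5% of experiment 2 lay that close.

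**Figure D1:**
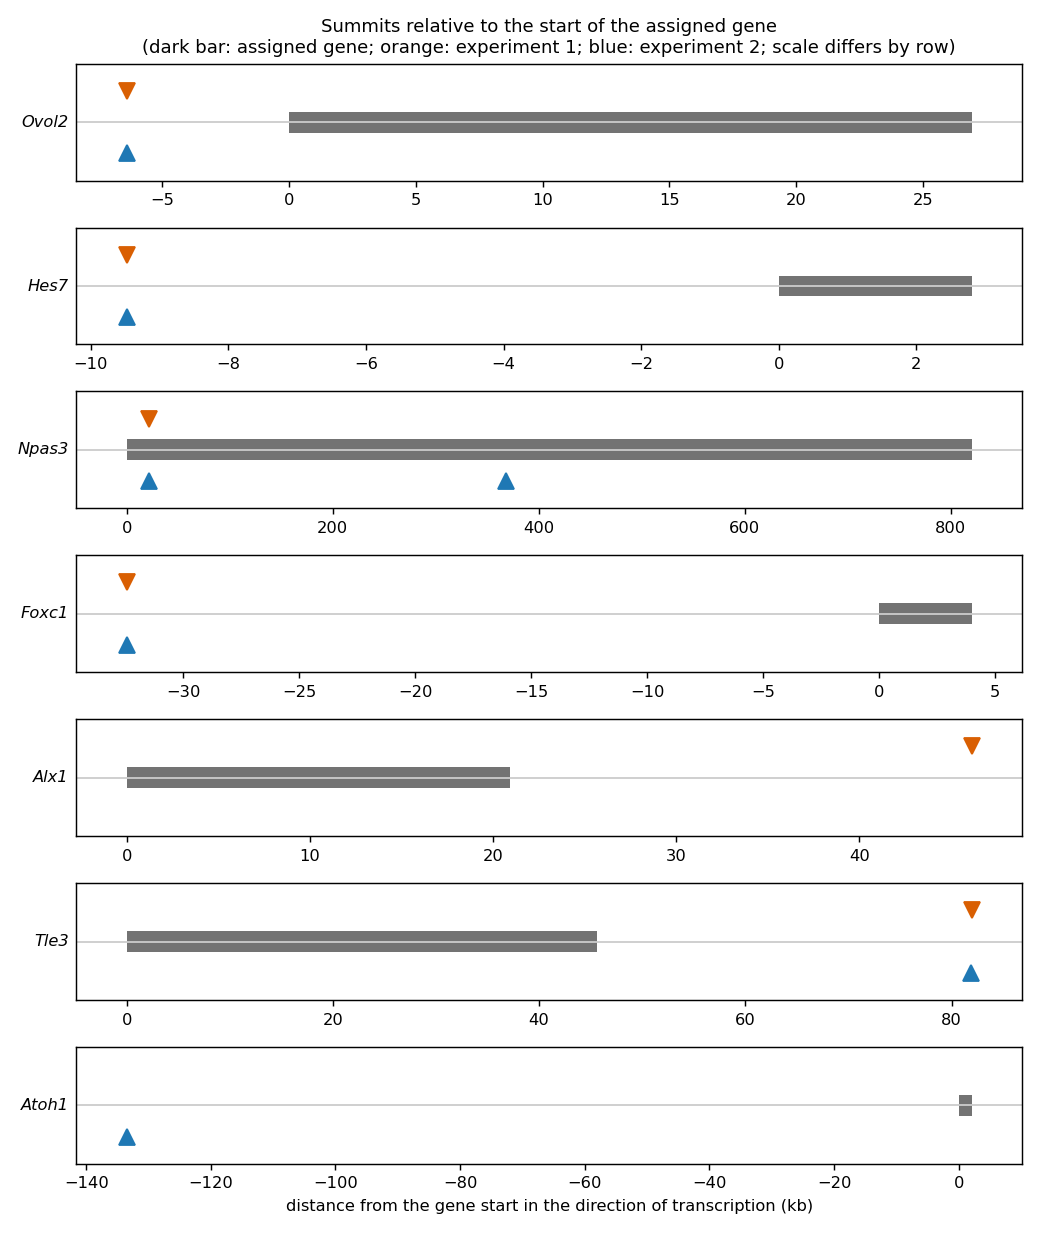
Summits of the sites relative to the start of the assigned gene, in kb along the direction of transcription, with a row and a scale of its own for each gene. Dark bars are the assigned genes, orange marks above the line are sites of experiment 1 and blue marks below it are sites of experiment 2. The marks of both experiments fall together at Ovol2, Hes7, Foxc1 and Tle3 and at 1 of the 2 places in Npas3.

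Foxc1, Hes7, Npas3, Ovol2 and Tle3 had a site at the same place in both experiments. The count was 5 of 6 sites in experiment 1 and 5 of 7 in experiment 2, and the share over all sites was 14.7% and 12.4%. Recurrence was among the reasons for picking the genes, so nothing is read from this contrast. The site of Alx1 was found in experiment 1 alone. The site of Atoh1 and a further site of Npas3 were found in experiment 2 alone.

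The bHLH gene Hes7 encodes a repressor that oscillates in the presomitic mesoderm under Notch signalling and paces the formation of somites. Its site lay 9.48 kb upstream, on chromosome 11 from 68924140 to 68924902 in experiment 1 (coordinates of build mm9, as in the lists). In experiment 1 the site had 34 tags, a score of 128.48 and a fold of 19.56, the 44th highest of 742. In experiment 2 it had 12 tags, a score of 67.02 and a fold of 12.05, the 185th of 901. The FDR was 26.53% and 100%.

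Hes7 lies among transfer RNA (tRNA) genes. In the order of genes of RefSeq assembly GRCm38.p6, 7 of its 10 nearest neighbours, 5 on either side, were tRNA genes, 3 of them on the side of the site. The next protein-coding gene on that side was Per1, a gene of the circadian clock. The other 6 regulators had no tRNA gene among these neighbours. Of the 558 genes with a site that were found in that assembly, 6.63% had at least 1. Whether the Hes7 site overlaps a tRNA gene was not tested, since no annotation of build mm9 was used here.

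Npas3, a bHLH-PAS gene expressed in the developing brain, was the only one of the 7 with sites that the lists place inside the assigned gene. The gene spans 820 kb on chromosome 12. The shared site (54371173 to 54372217 in experiment 1) lay 22.0 kb inside it, after 2.68% of its length. In experiment 1 it had 100 tags and a fold of 9.27, and in experiment 2 it had 24 tags and a fold of 7.36. These tag counts ranked 18th of 742 and 41st of 901, while the folds ranked 214th and 815th. The place was thus high in tags in both lists, while its fold was above the list median in experiment 1 and low in experiment 2. The site was also wide, at 1045 bp in experiment 1, or 1.88 times the median of that list.

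The other Npas3 site, seen in experiment 2 alone (54717637 to 54717927), differed in each of these respects. It lay 368 kb from the start, after 44.9% of the gene, and 346 kb from the shared site. It had 10 tags, where the lowest count of the list was 9, and a score of 53.63, where the lowest was 50.02. Its fold of 12.74 was nevertheless the higher of the 2 sites in that experiment. Sites inside the assigned gene numbered 1 of 6 and 2 of 7 among the regulators, beside 13.3% and 18.4% of all sites.

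Atoh1, the proneural bHLH gene of inner ear hair cells, cerebellar granule cells and secretory cells of the gut, had 1 site, in experiment 2. It lay 133 kb upstream on chromosome 6 (64545354 to 64545874), with 25 tags, a score of 68.39 and a fold of 6.97. By tags this was the 38th of 901 sites, by score the 127th and by fold the 840th. Its width of 521 bp was 1.75 times the median of that list. The list assigned it to Atoh1 by the nearest gene start. The nearest site of experiment 1 was 1314 kb from the Atoh1 site.

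The forkhead gene Foxc1, needed for the mesenchyme of the eye, skull and cardiovascular system, had the strongest site of the 7 genes in experiment 1. The site lay 32.4 kb upstream on chromosome 13 (31865675 to 31866470), on the side where the related genes Foxf2 and Foxq1 precede it. In experiment 1 it had 89 tags, a score of 510.9 and a fold of 32.99, the 9th highest of 742. In experiment 2 it had 21 tags, a score of 76.17 and a fold of 10.26, the 434th of 901 and near the list median of 10.0. By score it was the 79th of that list and by tags the 57th. The summits lay 5 bp apart, so the place was nearly the same in both while the fold differed. The fold in experiment 1 was 3.21 times that in experiment 2, which is a log2 difference of -1.69 (experiment 2 minus experiment 1). Among the 112 pairs of overlapping sites this was the widest gap in fold. Foxq1 had a site too, in experiment 2 alone, 138 kb upstream of that gene at 7.23-fold and 354 kb from the site of Foxc1.

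Alx1, a homeobox gene of craniofacial mesenchyme, had a single site in experiment 1. It lay downstream on chromosome 10 (102444613 to 102445561), 46.1 kb from the start and 24.9 kb from the end of the gene. With 33 tags, a score of 64.9 and a fold of 6.22 (514th of 742), it was the only one of the 6 sites of experiment 1 with a fold below the list median of 7.17. The nearest site of experiment 2 lay 637 kb away and was assigned to Nts.

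Ovol2, a zinc finger repressor that maintains epithelial identity, had the site nearest to a gene start. The site lay 6.39 kb upstream on chromosome 2 (144163949 to 144164396). It had 16 tags, a score of 56.62 and a fold of 8.66 in experiment 1, and 11 tags, a score of 79.96 and a fold of 17.52 in experiment 2. Its rank by fold rose from 230th of 742 to 34th of 901. This was the reverse of the order at Foxc1, with a fold 2.02 times higher in experiment 2, the third widest gap in that direction among the 112 pairs. The summits were 2 bp apart, the closest of the 5 pairs. The site was 170 bp wide in experiment 2 and 448 bp in experiment 1.

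Tle3, the Groucho corepressor gene, had a shared site downstream on chromosome 9 (61302212 to 61302782), 82.0 kb from the start and 36.3 kb beyond the gene end. In experiment 1 it had 26 tags and a fold of 8.71, and in experiment 2 it had 13 tags and a fold of 10.48. Its scores were 81.8 and 55.58, and its ranks by fold were 227th of 742 and 415th of 901. In experiment 2 the score was just under the list median of 55.7. The summits were 55 bp apart.

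**Figure D2:**
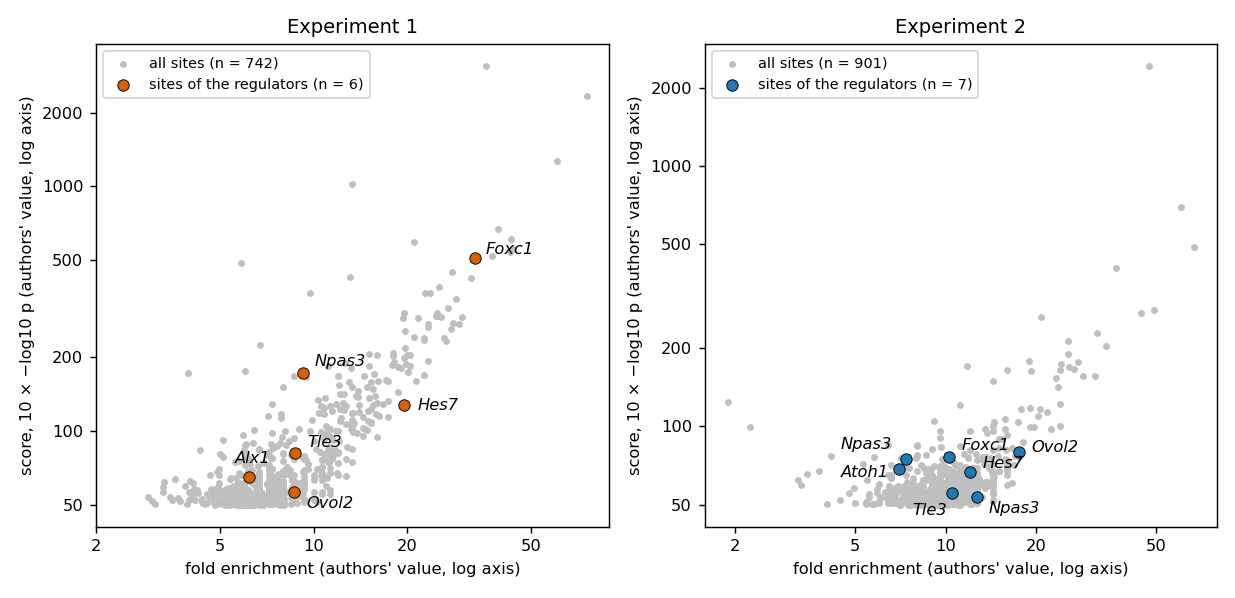
Fold enrichment (horizontal, log axis) against score (vertical, log axis) for each site of experiment 1 (left) and experiment 2 (right), with all sites in grey and those of the regulators in colour. Foxc1 stands at the upper end of experiment 1 (32.99-fold). In experiment 2 it is near the list median in fold (10.26-fold) but 79th of 901 in score. Npas3 at 9.27-fold in experiment 1 lies above most sites of like fold in score.

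The regulators' sites had a median fold of 8.99 in experiment 1 and 10.5 in experiment 2, beside 7.17 and 10.0 over all sites. Their fold was above the list median at 5 of 6 sites in experiment 1 and 5 of 7 in experiment 2, and so was their score, at 5 of 6 and 5 of 7. The sites below the median differed between these measures. By score, Ovol2 was the one below the median in experiment 1, and by fold it was Alx1. In experiment 2, Tle3 and the distal Npas3 site were below it by score, and Atoh1 and the shared Npas3 site by fold. The median fold of all shared sites was 15.3 in experiment 1 and 14.3 in experiment 2. Of the 5 recurring sites of the regulators, 3 were below it in experiment 1 and 4 in experiment 2. Shared sites thus had a higher median fold than all sites, and recurrence was among the reasons for picking the genes. No excess over the list medians is therefore read from the counts above.

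At all 5 recurring places the site of experiment 2 lay wholly inside that of experiment 1, as it did in 95 of the 112 pairs (84.8%). It covered from 24.0% of the wider site at Hes7 to 66.2% at Tle3. Summits lay 2 bp apart at Ovol2, 5 bp at Foxc1 and at Hes7, 55 bp at Tle3 and 75 bp at Npas3, beside a median of 10.5 bp over all pairs. The 2 wider offsets were at Npas3 and Tle3, with sites inside and downstream of the gene, and the 3 smaller ones at genes with an upstream site. With 5 pairs, and offsets not split by position over the 112 pairs, no relation is read from this.

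**Figure D3:**
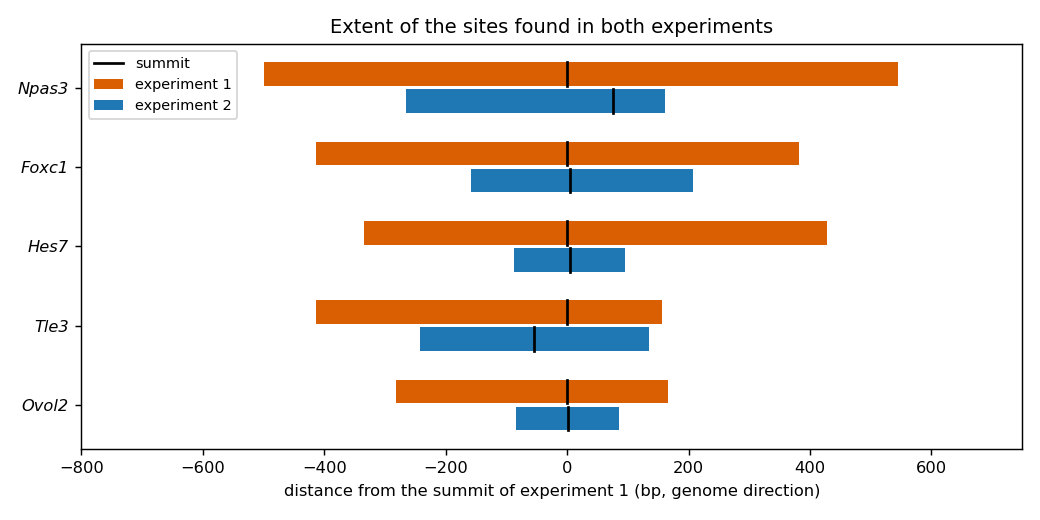
Extent of the 5 recurring sites, in bp from the summit of experiment 1, with orange bars for experiment 1, blue bars for experiment 2 and black lines for the summits. Each blue bar lies within the orange bar above it, and the summits are 2 to 75 bp apart.

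Fold was higher in experiment 1 at Foxc1, Hes7 and Npas3 and in experiment 2 at Ovol2 and Tle3, that is 3 and 2 of the 5, beside 64 and 48 of all 112 pairs. The fold at Hes7 was 1.62 times and that at Npas3 1.26 times higher in experiment 1, and that at Tle3 was 1.2 times higher in experiment 2. Tags were higher in experiment 1 at each of the 5, by 1.46 times at Ovol2 to 4.24 times at Foxc1. The read totals of the libraries are unknown, so tags cannot be compared between the experiments as levels. The median fold over all sites also differed, at 7.17 in experiment 1 and 10.0 in experiment 2. The ratios of fold between experiments, at Foxc1 as at the other genes, are therefore descriptions and not differences in level. With 1 list for each experiment and no values per library, the error of a single fold is unknown and these differences were not tested.

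**Figure D4:**
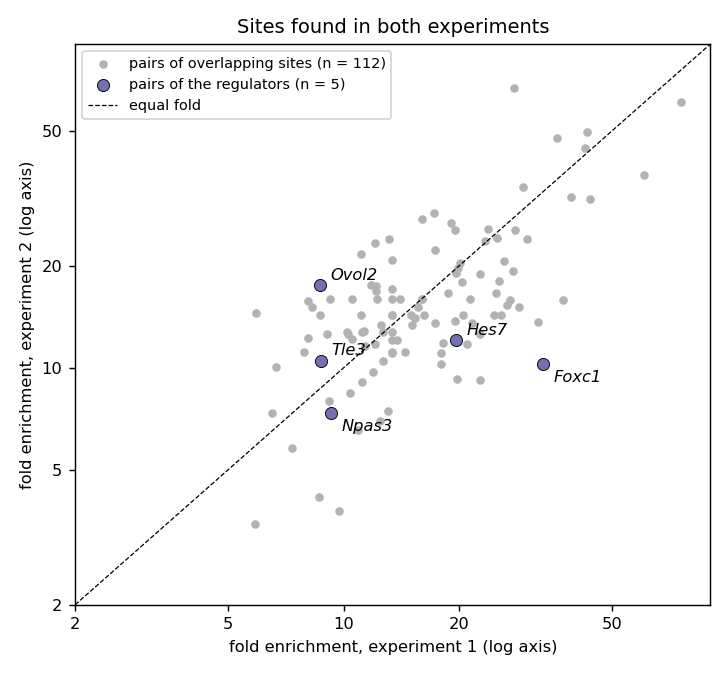
Fold enrichment in experiment 1 (horizontal, log axis) and in experiment 2 (vertical, log axis) for the 112 pairs of overlapping sites, with the 5 pairs of the regulators in colour and a dashed line where both are equal. Foxc1 lies farthest from that line, at 32.99-fold and 10.26-fold, and Ovol2 lies on its other side.

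The FDR ordered the sites differently from score and fold. An FDR of 5% or lower was reached by 1 of the 6 sites of experiment 1, the shared Npas3 site at 1.56%, and by 0 of the 7 in experiment 2, beside 8.22% and 0% of all sites. The FDR of the Foxc1 site was higher, at 9.09%, although its score was 510.9 and that of Npas3 was 172.1. Of the 63 sites of experiment 1 that scored above the Npas3 site, 60 had a higher FDR than it. Among the 10 sites with the highest score the FDR ranged from 0% to 25%. The FDR was 100% at Tle3, Alx1 and Ovol2 in experiment 1, that is 3 of the 6 sites, beside 78.7% of all sites of that list. It was 100% at all 7 sites in experiment 2, where 96.8% of all sites had that value.

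Relatives of the 7 regulators were counted from 6 lists of genes. The lists as reported here hold 163 genes, of which 156 are not among the 7, and 6 of the 156 (3.85%) had a site with a symbol. Of all 21900 protein-coding genes in the RefSeq table, 2.44% had one. These shares take no account of the space between genes, so no preference is read from them. In the bHLH list, 5 of 59 genes had a site, with Olig1 and Twist1 beside Atoh1, Hes7 and Npas3. In the paired-type homeobox list it was 3 of 27, with Pax3 and Shox2 beside Alx1. In the forkhead list it was 2 of 39, Foxc1 and Foxq1. The Ovol and epithelial zinc finger list had 1 of 10 and the Groucho family 1 of 6, namely Ovol2 and Tle3. The Notch pathway list had 2 of 28, Hes7 and Jag1, which encodes a Notch ligand.

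Olig1, a bHLH gene of oligodendrocytes, was the only one of these 6 with a recurring site. It lay 27.7 kb downstream on chromosome 16 (91297405 to 91298027), at 17.32-fold in experiment 1 and 22.3-fold in experiment 2. Its fold ranked 55th of 742 and 22nd of 901, and in experiment 2 it exceeded that of each of the 7 sites of the regulators. Shox2, a gene of limb and heart development, had a site in experiment 1 alone, 259 kb downstream of the start at 7.07-fold. The other 4 had sites in experiment 2 alone. These were 74.2 kb downstream at Jag1 (9.17-fold), 54.6 kb upstream at Pax3 (8.71-fold), 163 kb downstream at Twist1 (11.15-fold) and the site of Foxq1. The FDR at Olig1 was 22.83% in experiment 1 and 100% in experiment 2. All of the sites found in 1 experiment had an FDR of 100%, the value of 78.7% of all sites in experiment 1 and 96.8% in experiment 2.

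Other genes had sites at nearly the same distance from the start. In experiment 2 the site of Hdx lay 6.4 kb upstream of its gene, 2 bp from the distance at Ovol2, and that of Nop56 lay 32.4 kb upstream, 24 bp from the distance at Foxc1. At 22.0 kb inside the gene, E130203B14Rik was closest to the shared Npas3 site in both experiments, and its site recurred too, at 15.05-fold and 13.38-fold. Fam83a, with a recurring site 9.88 kb upstream, was among the 2 closest to Hes7 in both. For Atoh1 the closest were Cox10, 135 kb upstream at 8.21-fold, and Foxq1.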

How the data were processed

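One sample of KLF6-ChIP DNA and 1 of input DNA were compared by the authors in 2 experiments. Per the submitters' processing notes, which state no roles, the tool was MACS 1.3.6 and the build mm9. The aligner, its settings and the library sizes were not given in the sources used here. The depth is therefore unknown. Per the file headers, the deposited lists give tag counts (whole numbers, not normalised, library not stated), a score (10 times −log10 of the p-value), a fold enrichment (ratio) and an FDR (percent, at most 100). The authors' p-value enters only through that score.

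Sites were taken by gene symbol, and 7 of 7 symbols matched. Of all sites, 41.37% in experiment 1 and 42.62% in experiment 2 carry a symbol. Counts by symbol can miss sites without one, while the shares over all sites include them. Sites were shared when at least 1 bp overlapped. Ranks run within a list from the highest value, and widths count both end positions. Symbols of 558 of 574 genes were found, by name or synonym and on the same chromosome, in RefSeq assembly GRCm38.p6, used for names, gene types and order only. Site sequences in build mm9 were not analysed here. Functions were tested on simulated data, with Python 3.11.15 and pandas 2.3.3. The members and the gene lists were chosen with earlier results of these data known. Some genes of the lists, and genes next to some sites, are not reported here. All 7 members are named, as is each other reported gene of the lists with a site, plus up to 2 genes per member site with the nearest distance to the start. With 1 sample per group nothing was tested.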

Additional observations from a re-analysis of the deposited data

How the results depend on the processing

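Under 22 of 31 other settings the value stayed within 1.5 times, and under 9 it moved. Not all of the 22 were free to move. The search of descriptions had no names for the paired-type homeobox, Ovol and Groucho lists. Leaving out an experiment could not change the counts of the Ovol and Groucho lists. Their only genes with a site, Ovol2 and Tle3, recur in both experiments. The 5 recurring sites became 1 (Tle3) at a reciprocal overlap of 50%, as the wider sites of experiment 1 imply, and 3 (Foxc1, Hes7 and Npas3) among the higher-scoring 50% of sites. The number inside the assigned gene was 2, and 1 among the higher-scoring sites. Without either experiment in turn it was 1 or 2. The median percentile rank of the sites in experiment 2 was 53.7 by fold and 86.0 by score; the cause was not tested. With 1 experiment at a time, genes with a site ranged from 1 to 2 for the forkhead, Notch and paired-type homeobox lists and from 3 to 5 for the bHLH list. Sites without a symbol added Foxp4 to the forkhead genes (9.03-fold, inside the gene), which makes 3. They were matched by description alone, as the RefSeq table held 0 Ensembl identifiers for these genes. Descriptions were searched only for the names of forkhead, Neurod, Neurog and Notch genes. Sites without a symbol at the other genes of the lists were therefore not looked for. The median distance ranged from 27.2 to 32.4 kb without either experiment. No paired analysis was possible because each group has 1 sample and no test was made. The unknown read totals limit what absence from a list means at Alx1 and Atoh1.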
